A study of Homo sapiens with 15 samples.

Results

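Glutathione S-transferases (GSTs) are the enzymes that join the tripeptide glutathione to electrophilic compounds, among them drugs, lipid peroxidation products and oxidised catechols. The members described here were the genes GSTM1, GSTM2, GSTM3 and GSTM4 of the cytosolic mu class, GSTP1 of the pi class, GSTA4 of the alpha class, GSTO1 of the omega class and GSTZ1 of the zeta class, the mitochondrial and peroxisomal kappa enzyme GSTK1, and the membrane-bound microsomal enzyme MGST1. They were found on the array as every non-control probe whose RefSeq accession belongs to one of these 10 genes, which gave 13 probes of the 42405 non-control probes on the array; RefSeq accessions named 19483 genes in all. RNA was measured in PE/CA-PJ41, an established cell line from a human oral squamous cell carcinoma. By their labels, NCE (non-cytoglobin expressing) samples carried an empty transfection vector and CYGB+ samples a vector, pCMV6-Neo, with the human cDNA of cytoglobin, a haem-containing globin. The study's text calls the control cells un-transfected in places, so whether vector and selection were shared by both groups is not settled. The vector's own promoter drives the insert, stable lines were picked by cloning ring under G418, and cells stood 24 h in supplemented medium before RNA was taken. The study's methods name 1 clone, LST421, as the source of the CYGB+ RNA, so an effect of cytoglobin and a difference of that clone cannot be told apart. Each group had 3 biological replicates, from RNA extracted on 3 occasions. Each NCE replicate was hybridised to 3 arrays and each CYGB+ replicate to 2 arrays, 15 arrays in all. The comparison asks which of these enzymes differ in transcript level between cells with and without the cytoglobin vector.

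A glutathione S-transferase holds glutathione as its reactive thiolate and passes it to the electrophile, and the conjugate is then pumped out of the cell by ATP-driven transporters. The cytosolic classes act as dimers of related subunits, the kappa enzyme belongs to a separate fold, and the microsomal enzymes sit in membranes and also have glutathione peroxidase activity. In squamous carcinoma cells GSTP1 is known as the common cytosolic form. The GST system is studied in tumours because it takes part in the handling of alkylating and platinum drugs. The mu-class genes form a cluster on chromosome 1, in the order GSTM4, GSTM2, GSTM1, GSTM5 and GSTM3, in which GSTM3 is encoded on the strand opposite to the others.

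Upstream sequences of members are shown because GSTM3, described below, was the one mu-class member called as different between the groups. All 10 members matched RefSeq promoters of build GRCh38.p14, with 12 entries in all since MGST1 has several starts. The 250 bases before each annotated start are given 5′ to 3′ on the gene's own strand, with matches to the antioxidant response element core (TGACNNNGC) and the GC box (GGGCGG), searched on both strands, in capitals. GSTM3 (chr1:109741039-109741288, minus strand), GSTM4 (chr1:109655849-109656098, plus strand) and GSTP1 (chr11:67583562-67583811, plus strand) read as follows.
GSTM3: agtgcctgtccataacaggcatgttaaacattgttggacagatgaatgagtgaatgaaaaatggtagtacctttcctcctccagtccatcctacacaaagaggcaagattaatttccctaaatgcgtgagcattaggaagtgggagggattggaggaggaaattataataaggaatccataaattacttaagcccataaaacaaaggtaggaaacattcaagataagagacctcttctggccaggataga
GSTM4: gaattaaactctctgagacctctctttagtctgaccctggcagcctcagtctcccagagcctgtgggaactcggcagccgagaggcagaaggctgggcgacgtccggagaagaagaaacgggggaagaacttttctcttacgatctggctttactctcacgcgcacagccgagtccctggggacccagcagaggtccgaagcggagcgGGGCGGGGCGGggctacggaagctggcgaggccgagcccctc
GSTP1: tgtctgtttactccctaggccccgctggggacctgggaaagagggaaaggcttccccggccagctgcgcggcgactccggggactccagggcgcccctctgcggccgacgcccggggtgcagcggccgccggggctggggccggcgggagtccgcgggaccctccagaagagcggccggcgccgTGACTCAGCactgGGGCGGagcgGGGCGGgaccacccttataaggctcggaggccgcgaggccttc
The GSTM3 stretch held no match to either motif and 1 CpG dinucleotide, against 18 in GSTM4 and 28 in GSTP1. Its GC content was 40%, against a median of 58% over the 35116 RefSeq promoter entries. The ratio of observed to expected CpG was 0.102 for GSTM3, 0.744 for GSTM4 and 0.806 for GSTP1, and the median entry had 0.558. A member was counted for a motif where any of its entries held a match, whereas the shares over all promoters are of single entries. GC boxes were present in 8 of the 10 members and in 42.6% of all promoter entries. The antioxidant response element core was present in 4 members, GSTM1, GSTA4, GSTO1 and GSTP1, and in 10.9% of all entries. In GSTP1 the match lay 66 bases before the start, written as position -66. A match describes letters only, and no match says only that these letters are not in this window. Base content also depends on the annotated start, and GSTM3 was read from a single start. Between its starts MGST1 ran from 37.6% GC and 3 CpG to 66% GC and 19 CpG.

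Values are log2 green signals after background correction and quantile normalisation, and differences are CYGB+ minus NCE. A probe was tested where the scanner software rated it well above background on at least 6 of 15 arrays. For a probe printed several times, an array counted where no fewer of its spots were so rated than were not. Levels of different probes are not compared, because probes differ in how brightly they hybridise. The 3 NCE and 3 CYGB+ replicates were compared with limma, and a probe was called at a Benjamini-Hochberg adjusted p below 0.05 over the 22328 probes kept. In this comparison 10.8% of all probes tested were called, 5.5% higher and 5.32% lower in CYGB+. Nearly every NCE array lay on another slide than CYGB+: slide 1 held 8 NCE arrays, and slide 2 held the other NCE array (replicate 1) and all 6 CYGB+ arrays. Slide is therefore close to confounded with group, so 2 further estimates accompany the results, one from all arrays with slide as a block and one from slide 2 alone. Both set CYGB+ against the single NCE array of slide 2. The block fit treats array repeats of one RNA nearly as separate samples (correlation within replicates 0.173), which makes its p-values small, and the slide 2 fit assumes that the lone NCE array varies as the CYGB+ replicates do. The median local green background was 24 to 29 on slide 1 and 37 to 43 on slide 2. CYGB+ replicate 1, array 1, stood apart, with Pearson correlations of 0.918 to 0.953 with the other arrays, while all others correlated with each other at 0.956 or above. All 12 squamous epithelial markers were well above background on all 15 arrays. Their summed linear signal ran from 97620 to 171200 in NCE and from 114200 to 165600 in CYGB+. Of the fibroblast markers COL3A1, LUM, PDGFRB and THY1, of the endothelial markers VWF and TEK, and of the hepatocyte markers ALB and TTR were well above background on no array. The summed signal of the 8 fibroblast markers was 658.5 to 761.4 in NCE and 524.8 to 586.2 in CYGB+, with COL1A2 alone well above background on every array, and that of the 5 endothelial markers was 329.6 to 1970 in NCE and 331.2 to 375 in CYGB+. The 6 immune markers on the array summed to 895.5 to 1139 and 925.9 to 1126, and the 4 hepatocyte markers to 487.9 to 650.7 and 375.8 to 489.2, in NCE and CYGB+. The part of such signals in the results was not tested. As these are bulk RNA samples, fewer cells with a transcript and less transcript per cell cannot be told apart.

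The transfected gene itself had 1 probe, for NM_134268, and it did not separate the groups. The CYGB log2 signal was 11.85, 12.15 and 11.96 in the NCE replicates and 11.38, 12.44 and 11.97 in the CYGB+ replicates. The difference was -0.05 ± 0.25 (SE, n = 3 per group; limma adjusted p = 0.913). The probe was well above background on all 15 arrays, NCE included. The probe was meant as a check of the labels, and it did not bear them out. Where it lies in the transcript is not given in the sources used here, and whether it reads the inserted cDNA was not tested. A clear CYGB signal on every NCE array also does not match the name non-cytoglobin expressing. The cause was not tested. The study also assayed cytoglobin in its lines by other methods, which were not analysed here. NCE and CYGB+ below are the names the samples carry in their labels.

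GSTM3 was the member with the largest difference. This mu-class subunit is known from testis and brain and is also expressed in many epithelia. Its log2 signal was 6.16, 6.19 and 6.23 in the NCE replicates and 8.05, 8.13 and 8.10 in the CYGB+ replicates. The groups did not overlap, with SDs of 0.033 in NCE and 0.042 in CYGB+ (n = 3 each). GSTM3 was higher in CYGB+ by 1.90 ± 0.083 on the log2 scale (SE; 95% confidence interval 1.71 to 2.10), a 3.74-fold difference, with a limma adjusted p of 0.000273. It passed the filter on dim probes through the CYGB+ arrays. The fold, its interval and the p are therefore set against a group near the floor, as described next. The offset also narrows the spread there, so the NCE SD does not measure how far the transcript varies.

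The GSTM3 probe is printed 10 times on each array, which gives a direct view of measurement noise. All 60 spots on the CYGB+ arrays were well above background, and their log2 signals ran from 7.74 to 8.37. Of the 90 spots on the NCE arrays, 11 were well above background, 10 of them on 1 array (replicate 3, array 1), and the 90 signals ran from 5.80 to 6.38. No NCE spot reached the level of any CYGB+ spot. The transcript was therefore measured on all 6 CYGB+ arrays but on only 1 of 9 NCE arrays, where it sat near the floor that the background offset sets. That floor compresses the fold. With the offset lowered from 50 to 16 the log2 difference was 2.62, a 6.15-fold difference, and on the scanner's own processed signal it was 4.48, a 22.4-fold difference. The processed signal also depends on the scanner's red channel, in which GSTM3 differed between arrays too. Its fold is therefore not simply the green fold with the floor removed. The direction was higher in CYGB+ under all 18 alternatives that gave a value, whereas the size of the fold depended on how the signal was processed.

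**Figure D1:**
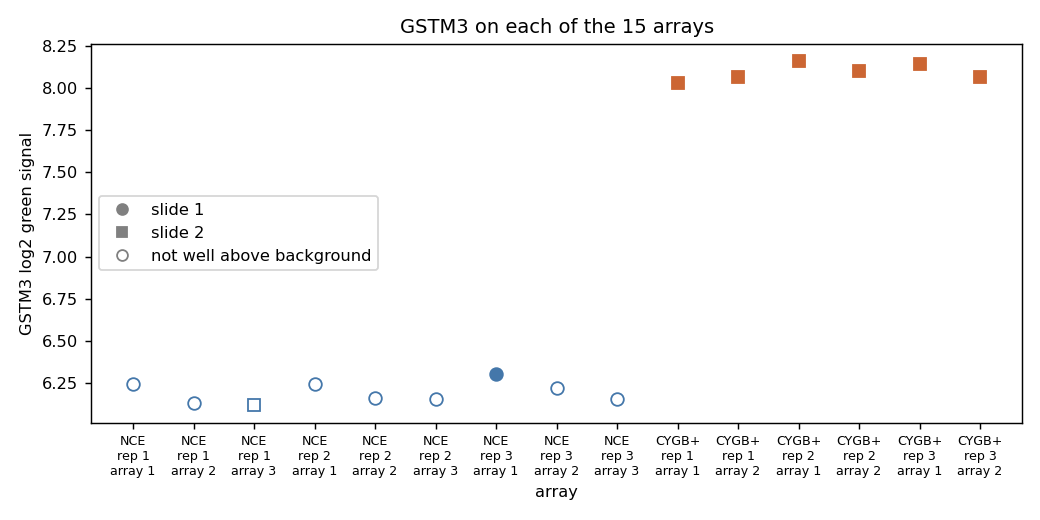
GSTM3 log2 green signal (vertical axis) on each of the 15 arrays, ordered by group, replicate and array; circles are slide 1, squares are slide 2, and open symbols are arrays where the probe was not well above background. The 6 CYGB+ arrays sit between 8.03 and 8.16 and the 9 NCE arrays between 6.12 and 6.31, including the NCE array on slide 2.

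The NCE array that shared slide 2 with CYGB+ gave a GSTM3 signal of 6.12, against 6.13 to 6.31 on the NCE arrays of slide 1. With slide as a block the difference was 1.97 ± 0.10 (limma adjusted p = 8.91e-08), and on slide 2 alone it was 1.98 ± 0.17. The slide 2 estimate missed the threshold (limma adjusted p = 0.0922), in a fit with 1 NCE array in which 0.0224% of all probes were called.

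The other mu-class members were not called, and all read close to the floor that the offset sets. GSTM1, which conjugates a broad range of epoxides, had log2 signals of 6.30, 6.30 and 6.33 in NCE and 6.34, 6.55 and 6.50 in CYGB+. Its groups did not overlap but were 0.15 ± 0.092 apart (limma adjusted p = 0.333; 95% interval -0.06 to 0.37), and it was well above background on 5 of 9 NCE and 5 of 6 CYGB+ arrays. By spots this was 52 of 90 in NCE and 51 of 60 in CYGB+. GSTM2 had 2 probes. The one tested (A_23_P397208) read 6.26, 6.25 and 6.32 in NCE and 6.16, 6.26 and 6.28 in CYGB+, overlapping groups with a difference of -0.04 (adjusted p = 0.784). The other (A_33_P3410351) was well above background on 1 NCE and 1 CYGB+ array, with values of 6.07 to 6.21 in NCE and 5.94 to 6.21 in CYGB+, and was not tested. GSTM4 read 6.47, 6.45 and 6.42 in NCE and 6.29, 6.62 and 6.38 in CYGB+, so that CYGB+ spread to both sides of NCE (difference -0.01; limma adjusted p = 0.96; 95% interval -0.27 to 0.24). These intervals exclude a difference of the size seen for GSTM3 on the same scale, but the floor that shrinks folds of dim probes applies to them too. Mu-class transcripts are alike in sequence, and how specific each probe is among them was not tested, as the probe sequences were not used here.

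MGST1 and GSTK1 showed smaller differences in the same direction, and neither call held across fits. MGST1, a membrane enzyme that conjugates glutathione and reduces lipid hydroperoxides, had log2 signals of 11.59, 11.82 and 11.98 in NCE and 12.15, 12.13 and 12.39 in CYGB+. All CYGB+ replicates lay above all NCE replicates, by 0.42 ± 0.13 on average, or 1.34-fold (95% interval 1.08 to 1.66), yet the limma adjusted p was 0.0851. With the replicate number as a block it was 0.046. The difference widened to 0.68 ± 0.16 with slide as a block (limma adjusted p = 0.0319) and to 0.74 ± 0.19 on slide 2 alone (limma adjusted p = 0.288). On that slide the NCE array read 11.49 and the CYGB+ arrays 12.05 to 12.40.

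GSTK1 was read by 2 probes that disagreed. This kappa enzyme of mitochondria and peroxisomes is built on a thioredoxin-like fold related to bacterial disulphide isomerases. The probe for NM_001143679 (A_33_P3287218) read 11.46, 11.22 and 11.60 in NCE and 12.12, 11.97 and 11.80 in CYGB+. The groups did not overlap, and the probe was called higher in CYGB+ by 0.54 ± 0.13, or 1.45-fold (limma adjusted p = 0.0464). The adjusted p rose to 0.0543 with the replicate block and to between 0.0593 and 0.158 when any of the 6 replicates was left out. With slide as a block the difference was 0.40 ± 0.20 (limma adjusted p = 0.407), and on slide 2 alone it was 0.40 ± 0.20 (limma adjusted p = 0.571). The probe for NM_015917 (A_23_P20107) read 8.69, 8.58 and 8.69 in NCE and 7.84, 8.95 and 8.60 in CYGB+, with a difference of -0.19 ± 0.26 (limma adjusted p = 0.678). Its low CYGB+ value came from the array that stands apart, which read 6.90 while the other 5 CYGB+ arrays read 8.35 to 9.04. Without that array this probe differed by 0.12 (limma adjusted p = 0.464), in the direction of the first probe, which then differed by 0.47 (limma adjusted p = 0.0269).

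**Figure D2:**
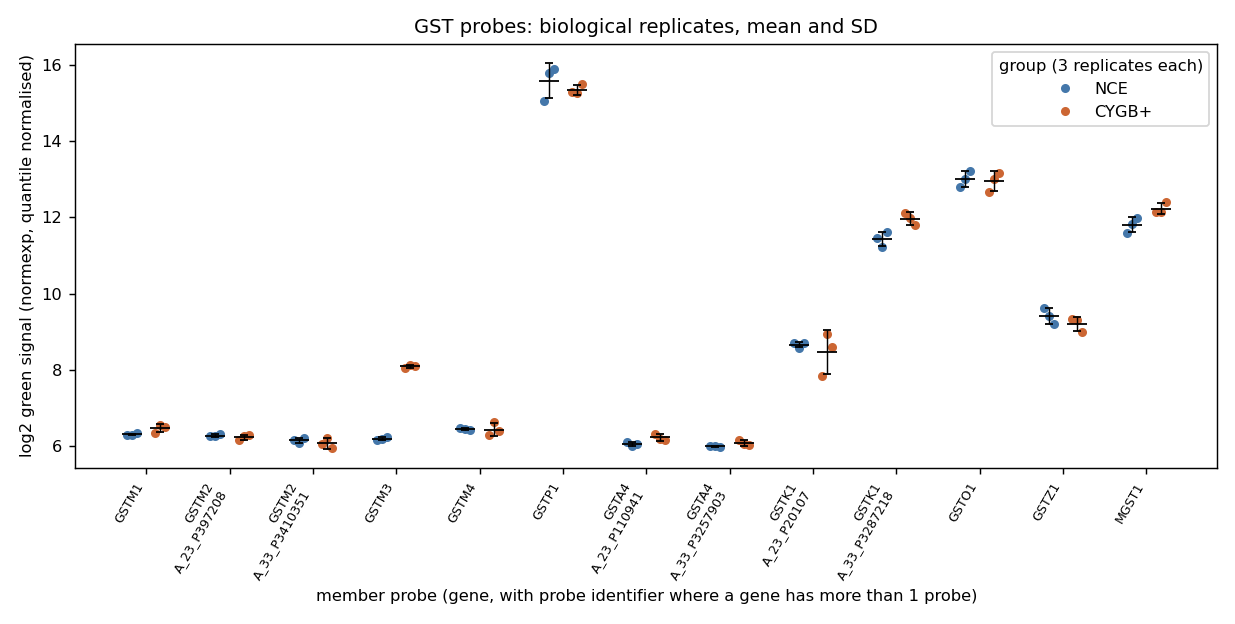
Log2 green signal (vertical axis) of the 13 member probes in the 3 NCE and 3 CYGB+ biological replicates; points are replicates (means of their arrays), and black marks are the mean and SD. Each probe is read within itself: GSTM3 shows the wide gap between groups, GSTP1 shows the spread of NCE from 15.06 to 15.89, and several probes sit near 6.

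GSTP1, GSTO1 and GSTZ1 were well above background on all 15 arrays and were not called. GSTP1, the pi-class enzyme, had log2 signals of 15.06, 15.79 and 15.89 in NCE and 15.27, 15.24 and 15.49 in CYGB+. The CYGB+ values lay inside the NCE range, and no GSTP1 spot was saturated on any array. The difference was -0.25 ± 0.22 (limma adjusted p = 0.513; 95% interval -0.76 to 0.27). Its sign was not stable: the difference was 0.43 ± 0.42 with slide as a block (limma adjusted p = 0.807) and 0.57 ± 0.19 on slide 2 alone (limma adjusted p = 0.392). The single NCE array on slide 2 read 14.77, and NCE arrays on slide 1 ran from 15.13 to 16.57. That array belongs to replicate 1, whose arrays on slide 1 read 15.13 and 15.28, the lowest NCE values of that slide. The slide 2 array differed from their mean by -0.44. With 1 NCE array on slide 2, a slide effect and the spread of single arrays cannot be told apart. No direction can be given for GSTP1 from these arrays.

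GSTO1, the omega-class enzyme that reduces dehydroascorbate and methylated arsenicals, read 12.78, 13.01 and 13.20 in NCE and 12.66, 12.99 and 13.17 in CYGB+. The groups overlapped almost fully, with a difference of -0.05 ± 0.16 (limma adjusted p = 0.865; 95% interval -0.44 to 0.33). GSTZ1, the zeta-class enzyme that isomerises maleylacetoacetate in tyrosine breakdown, read 9.62, 9.42 and 9.19 in NCE and 9.32, 9.30 and 9.0 in CYGB+. Its difference was -0.20 ± 0.14 (limma adjusted p = 0.415; 95% interval -0.54 to 0.14), and the groups overlapped.

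GSTA4, the alpha-class enzyme that clears the lipid peroxidation product 4-hydroxynonenal, was not tested with either of its 2 probes. The probe printed 10 times per array (A_23_P110941) read 6.09, 6.01 and 6.06 in NCE and 6.33, 6.19 and 6.17 in CYGB+, without overlap. It was well above background on no NCE array and on 2 of 6 CYGB+ arrays. By spots this was 0 of 90 in NCE and 23 of 60 in CYGB+. The other probe (A_33_P3257903) was well above background on no array, and read 5.96 to 6.0 in NCE and 6.04 to 6.17 in CYGB+.

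Of the 10 member probes tested, 2 were called higher in CYGB+ and 0 lower, against the 10.8% of all probes called in either direction. Replicates did not overlap for 4 of the 10, as for 33.3% of all probes. With slide as a block 2 member probes were called, GSTM3 and MGST1, where 3.26% of all probes were called. Counted by gene, each by its probe with the highest mean signal, 2 of 9 genes were called, beside 13.2% of the 12885 genes tested (6.5% higher and 6.67% lower). The median difference over the 9 genes was -0.01, and over all genes it was 0.0066. GSTM3 differed by 1.90, and the other 8 genes lay between -0.25 and 0.54.

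**Figure D3:**
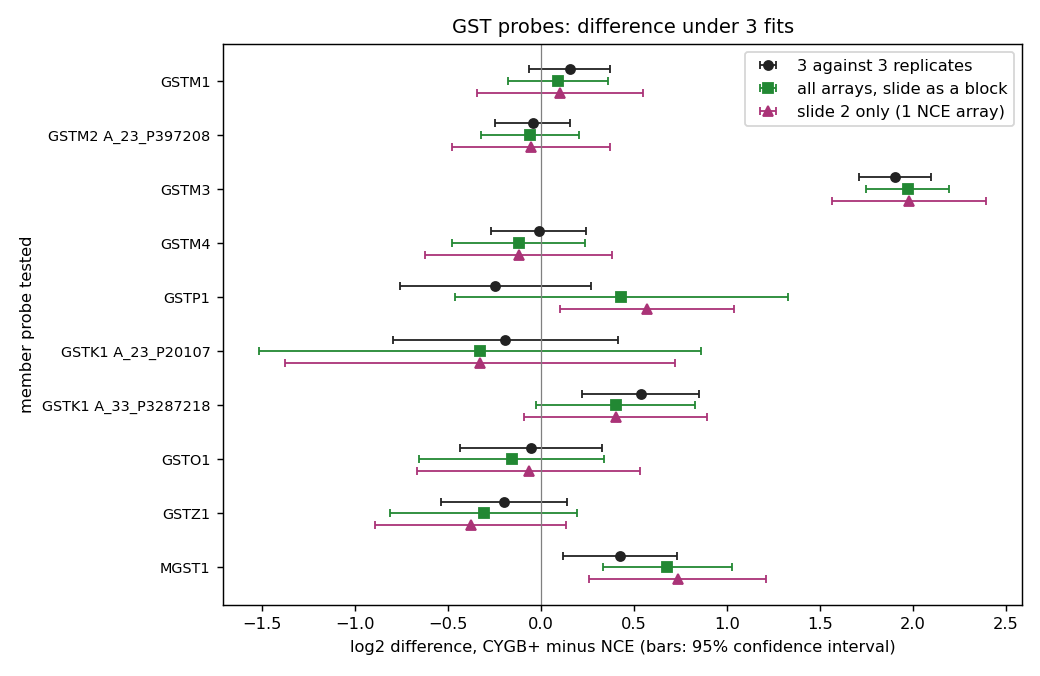
Log2 difference, CYGB+ minus NCE (horizontal axis), with 95% confidence intervals for the 10 member probes tested, from the 3 against 3 replicates (circles), from all arrays with slide as a block (squares) and from slide 2 alone (triangles). GSTM3 stays near 1.9 to 2.0 in all 3 fits, while GSTP1 moves from -0.25 to 0.57.

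Genes around the members were described from 4 lists, each gene by its probe with the highest mean signal, and a gene is given in full where it was called with a difference of at least 1.5-fold, as 6.14% of all probes were. Of the other genes of the GST and GST-fold families, 14 of 20 were tested, and 2 were called higher and 1 lower in CYGB+ (median difference 0.09). The share called was 21.4%, beside 13.2% of all genes tested. MGST2 and MGST3, microsomal relatives of MGST1, were called higher by 0.49 (adjusted p = 0.019) and 0.32 (adjusted p = 0.0492), both under 1.5-fold. With slide as a block these differences were 0.19 and -0.05, and neither was called. MGST3 was also not called with the replicate block (limma adjusted p = 0.0721). CLIC3, a chloride intracellular channel protein with a GST-like fold, was called lower, with a difference of -1.07 (limma adjusted p = 0.047). Its difference was -2.89 with slide as a block (limma adjusted p = 0.0491), but the call was lost without the array that stands apart (limma adjusted p = 0.193). GSTM5, the remaining mu-class gene, differed by 0.10 (limma adjusted p = 0.673).

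Glutathione supply showed calls in both directions. Of 20 genes tested for synthesis, turnover and reduction, 3 were called higher and 1 lower (median difference 0.09). The share called was 20%, beside 13.2% of all genes tested. CHAC1, a gamma-glutamyl cyclotransferase that degrades glutathione, had mean log2 signals of 8.57 in NCE and 9.65 in CYGB+, a difference of 1.08 ± 0.14 (limma adjusted p = 0.00747). SLC3A2, the heavy chain that carries the cystine transporter to the membrane, was higher by 0.96 ± 0.13 (limma adjusted p = 0.00775). Both were also called with slide as a block, at 1.31 and 1.11. GLRX, a glutaredoxin, was higher by 0.60 (limma adjusted p = 0.0353), a call lost with slide as a block (limma adjusted p = 0.328). GSS, glutathione synthetase, was called lower, with a difference of -0.50 (limma adjusted p = 0.0136), under 1.5-fold, and was not called with slide as a block (-0.48; limma adjusted p = 0.092). The replicate block added calls for GCLC (0.60; limma adjusted p = 0.0315) and SLC7A11 (0.70; limma adjusted p = 0.0311), both higher, and for GCLM (-0.88; limma adjusted p = 0.0421), lower. With slide as a block none of these 3 was called, and GCLM differed by 0.17.

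Among genes of conjugate export and glutathione-dependent detoxification, 2 of 12 were called, both higher in CYGB+ (median difference 0.11). The share called was 16.7%, beside 13.2% of all genes tested. ABCC3, an ATP-driven pump for organic anion conjugates, was higher by 0.81 ± 0.11 (limma adjusted p = 0.00821). It was also called with slide as a block, at 0.93 (limma adjusted p = 0.0431). The replicate block added calls for HAGH (0.41; limma adjusted p = 0.0488), higher, and ESD (-0.59; limma adjusted p = 0.0203), lower, which differed by -0.03 and -0.15 with slide as a block and were not called there.

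The list of detoxification genes linked to the transcription factor NRF2 had the highest share of calls, 5 of 16 higher and 1 lower, or 37.5%, beside 13.2% of all genes tested. Its median difference was 0.50. AKR1C1, an aldo-keto reductase, was higher by 1.41 ± 0.30 (limma adjusted p = 0.0294). TXNRD1, thioredoxin reductase, was higher by 1.05 ± 0.12 (limma adjusted p = 0.00552). HMOX1, which degrades haem, was higher by 1.00 ± 0.11 (limma adjusted p = 0.00532). NQO1, a quinone reductase, was higher by 0.94 ± 0.12 (limma adjusted p = 0.00747). PGD, of the pentose phosphate pathway, was higher by 0.72 ± 0.13 (limma adjusted p = 0.0188), while TALDO1 of the same pathway was lower, with a difference of -0.81 ± 0.14 (limma adjusted p = 0.0181). With slide as a block TXNRD1, HMOX1, NQO1 and PGD were called, and AKR1C1 (1.68; limma adjusted p = 0.231) and TALDO1 (-0.65; limma adjusted p = 0.348) were not. The replicate block added calls for CES1 (0.99; limma adjusted p = 0.0116) and ALDH3A1 (0.51; limma adjusted p = 0.0307), both higher, and neither was called with slide as a block (1.00 and -0.06). Of the 4 members whose upstream stretch holds the antioxidant response element core, GSTM1, GSTO1 and GSTP1 were not called and GSTA4 was not tested. GSTM1 and GSTA4 read near the floor, and GSTP1 changed sign between fits. The gene of NRF2 itself was on the array but not among the genes tested. A part of NRF2 in these differences was not tested.

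**Figure D4:**
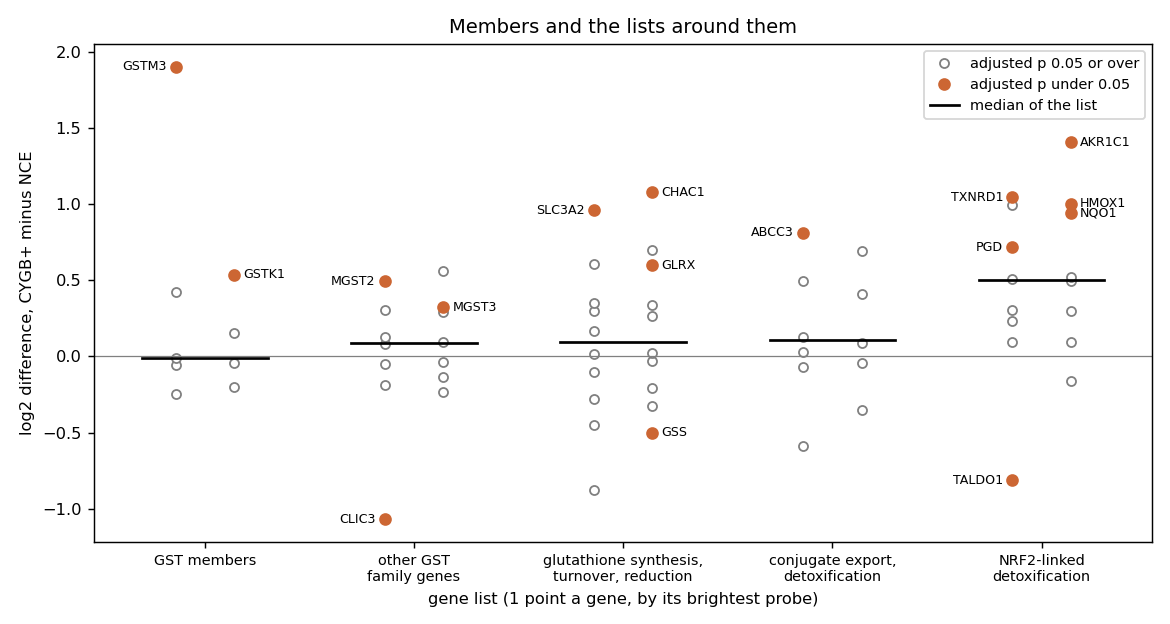
Log2 difference, CYGB+ minus NCE (vertical axis), for the 9 member genes tested and for the genes of the 4 lists around them that are reported here; each point is a gene by its brightest probe, filled where the limma adjusted p was under 0.05, and the bar is the median of the list. GSTM3 lies above every other gene shown, and the NRF2-linked list has its median at 0.50.

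Of the member genes well above background on every array, GSTK1 (A_33_P3287218) had the largest difference between the 3 against 3 replicates (with slide as a block MGST1 had, at 0.68 against 0.40), so genes with the most similar pattern over the 15 arrays were looked up for it among 12661 genes outside the family. METTL22 (r = 0.944), SGSM3 (r = 0.943), GDF15 (r = 0.943), HMBOX1 (r = 0.943) and MPI (r = 0.941) came first by Pearson correlation. These values are a description: arrays of one group share the clone and nearly always the slide, and array repeats share their RNA.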

How the data were processed

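Green-channel (cyanine 3) hybridisations to Agilent SurePrint G3 Human 8x60K arrays were read for 15 samples. Per the file headers, the scanner files were made with Agilent Feature Extraction 10.7.3.1 and hold deposited spot intensities on a linear scale. The labels give cyanine 3 for all samples, whereas the study's methods give cyanine 5 for control RNA, and the red channel's content is not named by the labels, so groups rest on green signals and labels. The table of values deposited by the authors holds natural log values of 15031 non-control probes centred per probe (column medians -0.161 to 0.183), with 6 of the 13 member probes. Its per-array slopes against log2 processed signals ran from 0.551 to 0.702, near the 0.693 of a natural log scale. Its exact centring is unknown, and it was used as an alternative only.

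Median green signals (mean signals were not used here) were corrected with normexp (local background, offset 50), quantile normalised, taken to log2, freed of outlier-flagged spots and averaged over spots of a probe and arrays of a replicate. Probes well above background on at least 6 of 15 arrays were tested with limma 3.58.1 in R 4.3.3, 3 against 3 replicates, with Benjamini-Hochberg adjustment at 5%. On data simulated from these 22328 probes, 71.4% of changes of 1 and 96.3% of changes of 2 log2 units were called. The simulation drew independent noise for each probe, with no slide effect, no link between replicates and no floor on changes of dim probes. Its shares therefore do not give the power of the comparison made here. Gene names came from RefSeq accessions, which named 25422 probes; the arrays' design predates that table. Samples were extracted on 3 occasions, and p-values measure the spread between these samples. The number of arrays limits the precision. Same-numbered NCE and CYGB+ replicates deviated together from their group means, though weakly (r = 0.21, 0.23 and 0.3 over probes). For number 2 the best match was a replicate of another number, and the sample titles do not state that numbers pair across groups. Pairing by number is therefore an assumption. The fit with the number as a block is an alternative, given where it changed a call. Members, lists and tests were chosen with earlier results of these data known. Named genes were all members by every probe, CYGB, list genes called with at least 1.5-fold difference (up to 10 per list), and the 5 genes most correlated with one member; MGST2, MGST3, GSS, GSTM5, the list genes whose call the replicate block changed and the marker genes were named in addition, after their values were seen. A list gene that met this rule and a marker gene are not reported here by name. Alternatives were another normalisation, offset, filter, the processed signal, the authors' value table, the methods' t-test after Benjamini-Hochberg, all arrays with replicate as a random block, slide as a block, slide 2 alone, and each replicate left out. Leaving out the array that stands apart was chosen after seeing the data.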

Additional observations from a re-analysis of the deposited data

Results flagged for a closer look

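Over 13 member probes in 2 groups of arrays, 26 groups in all, 4 held an array far from the others by Dixon's criterion, and chance marks about 1 in 20. Arrays of a group include repeats of the same RNA. For 3 of the 4 the array was CYGB+ replicate 1, array 1: GSTM1 read 6.20 there, against 6.49 on the nearest of the 6 arrays; GSTA4 (A_23_P110941) read 6.49, against 6.23; and GSTK1 (A_23_P20107) read 6.90, against 8.35. This is the array with the lowest correlations to all others. GSTZ1 read 8.86 on NCE replicate 3, array 2, against 9.33 on the nearest of the 9 NCE arrays.

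The red channel, whose content the labels do not name, carried GSTM3 signal. After the same correction and normalisation, its mean log2 red signal was 9.09 on the 3 NCE arrays numbered 1 within their replicate (8.89 to 9.35) and 6.82 on the other 6 NCE arrays (6.71 to 6.95). On the 6 CYGB+ arrays it ran from 9.28 to 10.15. In the green channel GSTM3 read 6.24 to 6.31 on the 3 NCE arrays numbered 1 and 6.12 to 6.22 on the other 6, a far smaller gap. MGST1 red signal also split the NCE arrays, at 13.79 to 14.05 on those numbered 1 and 13.21 to 13.46 on the others. On the CYGB+ arrays it ran from 13.45 to 13.89. For the other member probes the red signals of these sets of NCE arrays overlapped. The cause was not tested.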

How the results depend on the processing

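GSTM3 kept its direction under all 18 alternatives that gave a value, with log2 differences from 1.89 to 4.48, the largest on the processed signal. Its call was kept under 17, and the exception was slide 2 alone (1.98). These calls too are set against an NCE group near the floor. GSTM3 was outside the probes kept when all 15 arrays had to be above background and outside the authors' value table as used here. The GSTK1 call (A_33_P3287218) was lost under 17 of 20 alternatives and MGST1 was called under 4 of 20, in both cases with the direction kept. GSTZ1 kept its direction under 20 of 20, and GSTM1 and GSTM2 under 18 of 18, without a call.

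Over all probes, 1227 were called higher and 1188 lower. The numbers were 789 and 715 with 75th percentile scaling, 810 and 714 with the processed signal at the 75th percentile, 764 and 680 in the authors' value table (15031 probes tested), 353 and 307 by the methods' t-test, 281 and 447 with slide as a block, 3 and 2 on slide 2 alone, and 2465 and 2393 with all arrays unaveraged. Without the array that stands apart they were 2089 and 2019, and with slide as a block besides 680 and 941. The share of calls that were higher moved from 50.8% to 38.6% with slide as a block. Leaving out 1 replicate gave 234 to 1264 higher and 246 to 1134 lower, with the fewest without NCE replicate 2 and without NCE replicate 3.

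Of the member probes, 2 were called higher. The number was 1 with 75th percentile scaling, with the processed signal under both scalings, with offset 16, without the filter, with the stricter filter and by the methods' t-test, 0 in the authors' value table and on slide 2 alone, and 1 with any replicate left out, and it was 3 with all arrays unaveraged. None was called lower under any alternative.

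Of the list genes, 12 were called higher and 3 lower. The higher calls numbered 6 by the methods' t-test, 0 on slide 2 alone and 19 with all arrays unaveraged, and 7 to 15 with a replicate left out. The lower calls numbered 1 with the processed signal under both scalings, in the authors' value table, by the methods' t-test and with slide as a block, 0 on slide 2 alone, 5 with all arrays unaveraged and without the array that stands apart, and 0 to 5 with a replicate left out. With the replicate block, 16 list genes were called higher and 5 lower, MGST1 was called and GSTK1 was not, 1456 and 1477 probes were called over all, and it changed no other call among the members.

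Uncalled differences turned sign as follows. GSTP1 was 0.43 with slide as a block, 0.57 on slide 2 alone and 0.36 with slide as a block without the array that stands apart. GSTM4 was 0.0084 with 75th percentile scaling and 0.059 without the array that stands apart. GSTK1 (A_23_P20107) was 0.12 without that array, and so too without CYGB+ replicate 1. CYGB was 0.091 with the processed signal at the 75th percentile and 0.047 in the authors' value table. With a replicate left out, GSTM4 ran from -0.11 to 0.058, GSTK1 (A_23_P20107) from -0.43 to 0.12, GSTO1 from -0.17 to 0.085 and CYGB from -0.31 to 0.22. The causes were not tested. Dim probes near the background floor (GSTM1, GSTM2, GSTM4, GSTA4) allow no firm fold.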

Other observations

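The spots and repeats of a member probe give its technical spread. The median SD between the 10 spots of an array was 0.077 for GSTM3, 0.093 for GSTM1 and 0.27 for GSTP1 on the log2 scale. The median SD between array repeats of one replicate was 0.05 for GSTM3, 0.21 for GSTP1 and 0.085 for MGST1. For GSTP1 the NCE replicates had an SD of 0.46, against 0.13 in CYGB+.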
